A study of Mus musculus with 12 samples.

Results

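The 10 genes described here are well-known transcriptional targets of p53 in the mouse: Cdkn1a, Mdm2, Trp53inp1, Bbc3, Bax, Ccng1, Phlda3, Eda2r, Zmat3 and Sesn2. They were taken as a named list and not by a cut-off on their values, but with earlier results of these data known. They were found by Ensembl identifier among 48526 gene rows. All 10 were present in the tables, and all 10 passed the filter on low counts in every comparison. Between genotypes, in input, J2 and K1 alike, Phlda3 and Eda2r passed it only with their DKO libraries. A difference in these 2 genes was thus built into their being tested. Their calls and fold changes are part of the counts of members called higher and of the members' medians given below. The RNA came from 4 female mice aged 3 months, from cells whose titles name the epithelium of the whole intestine and whose extraction protocol names the proximal part of the small intestine. Of these, 2 animals were KAT2A/KAT2B DKO mice, in which loss of the lysine acetyltransferases Kat2a and Kat2b was induced with tamoxifen (100 mg/kg, given into the peritoneum on 4 days). The other 2 were control mice injected with the ethanol and corn oil vehicle. Cells were taken 2 days after the last injection. The labels do not name the alleles, what drives their deletion or the genotype of the controls beyond "Control", and loss of the genes and exposure to tamoxifen cannot be told apart. Each animal gave 3 libraries: input RNA, RNA bound by the antibody J2, and RNA bound by the antibody K1, so there are 6 groups of 2 libraries. Both antibodies recognise double-stranded RNA.

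The tumour suppressor p53 is a transcription factor that is normally kept low because the ubiquitin ligase Mdm2, itself a p53 target, marks it for destruction. When DNA damage or another stress stabilises p53, it binds a site made of a pair of decamer half-sites and turns on genes that halt the cell cycle, promote apoptosis, adjust metabolism and feed back on p53 itself. In the intestine this response is known best from the crypts after irradiation, where the p21 protein encoded by Cdkn1a and the BH3-only protein encoded by Bbc3 (Puma) have been studied as arms of arrest and death.

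The input libraries held 10307281 to 11474107 gene-assigned counts. The J2 libraries of control held 15359376 and 13308021 and those of DKO 5826361 and 2691285. The K1 libraries of control held 16139531 and 14035066 and those of DKO 5559033 and 2220291. Reads assigned to no single gene were 37.2% to 38.2% of the listed reads in input, 18.7% to 24.8% in the control pulldowns and 32.0% to 61.2% in the DKO pulldowns. The control pulldowns thus had the lowest shares, and K1 of DKO animal 2 had the highest. Kat2a had 222 and 228 counts in control input against 84 and 148 in DKO input, and Kat2b had 359 and 343 against 118 and 114. Both fell (Kat2a log2 fold change -0.88, SE 0.23, adjusted p = 0.0205; Kat2b -1.51, SE 0.17, adjusted p = 6.31e-04), but neither was near 0. Summed CPM of 7 epithelial markers (Epcam, Cdh1, Vil1, Krt8, Krt20, Cdx2 and Fabp1) was 5620 to 6960 in all 4 input libraries, and none of the 7 passed the test. All 6 markers of stem and dividing cells were lower in DKO input, with summed CPM of 694 and 641 in the control animals against 93.6 and 144 in the DKO animals. Leukocyte markers summed to 103 and 111 CPM in control input and 71.3 and 66.9 in DKO input, and 4 of the 7 tested were called lower. Stromal and endothelial markers summed to 1.99 to 5.58 CPM in input. The part that these shifts in cell markers had in the values below was not tested.

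The members lie on 8 chromosomes. In GENCODE M21 (GRCm38) Cdkn1a spans chr17:29090976-29100727 on the plus strand, Mdm2 chr10:117688875-117710758 on the minus strand, Ccng1 chr11:40748552-40755311 (minus) and Trp53inp1 chr4:11156431-11174379 (plus). Bax spans chr7:45461697-45466898 (minus), Bbc3 chr7:16308393-16318205 (plus), Phlda3 chr1:135766119-135769136 (plus) and Eda2r chrX:97333840-97377216 (minus). Zmat3 spans chr3:32334792-32366014 (minus) and Sesn2 chr4:132492032-132510501 (minus). All 10 are protein-coding, and counts were summed over their exons. Exonic length ran from 1559 bp (Phlda3) to 11435 bp (Zmat3), around a median of 3509 bp for 21760 protein-coding genes. GC content of the longest transcript ran from 38.8% (Trp53inp1) to 65.2% (Bbc3), around a median of 48.7%. The counts did not use strand. Other annotated genes overlap 7.7% of the exonic bases of Cdkn1a (on the opposite strand) and 12.2% of those of Bax (on the same strand), so the values of these 2 genes are less certain.

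The members share a control element by reputation, so their promoters were searched for it. RefSeq promoter windows (GRCm38.p6, 250 bases before to 50 after a transcript start) were on hand for 8 members in 11 windows, Trp53inp1 and Zmat3 not being among them. A p53 full site was counted as a pair of p53 half-sites of 10 bases, on either strand, with a spacer of 0 to 13 bases and at most 1 mismatch in all. It was found in 3 of the 11 member windows, belonging to Cdkn1a, Ccng1 and Bax, and in 359 of all 32851 windows (1.09%). With no spacer it was found in 2 of the 11, belonging to Cdkn1a and Ccng1, and in 29 of all windows (0.0883%). A single half-site with no mismatch was found in 4 of the 11 member windows and in 8.36% of all windows. The 3 stretches are shown because they place the element beside genes whose RNA is followed below. Each is written 5′ to 3′ on the strand of its gene, and capitals mark the half-sites.
Cdkn1a, chr17:29090868-29090977, plus strand, site ending 31 bases before the upstream transcript start: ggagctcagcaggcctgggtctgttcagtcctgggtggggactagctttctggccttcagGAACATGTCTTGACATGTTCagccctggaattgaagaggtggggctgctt
Ccng1, chr11:40755432-40755536, minus strand, site ending 175 bases before the start: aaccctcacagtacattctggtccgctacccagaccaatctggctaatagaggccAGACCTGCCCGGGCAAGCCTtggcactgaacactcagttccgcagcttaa
Bax, chr7:45467060-45467148, minus strand, site ending 191 bases before the start: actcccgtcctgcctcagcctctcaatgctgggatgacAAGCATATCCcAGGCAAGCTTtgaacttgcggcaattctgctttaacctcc
The Cdkn1a and Ccng1 sites are unbroken runs of 20 bases, whereas the Bax half-sites are 1 base apart. A match is a description of letters and no measurement of binding, and a window without one says only that these letters are not in it.

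Levels are given as CPM, the count of a gene divided by library size after TMM scaling over the 12 libraries. Dividing CPM by exonic length makes levels of different genes comparable. On that scale Cdkn1a was the most abundant member in control input, at 45.6 ± 0.221 CPM per kb (SD, n = 2). Ccng1 (9.39 ± 0.986) and Mdm2 (8.67 ± 0.165) came next. Sesn2 stood at 3.74 ± 0.139, Bbc3 at 3.73 ± 0.192 and Bax at 2.82 ± 0.345 CPM per kb. Phlda3 (0.118 ± 0.0945) and Eda2r (0.0955 ± 0.0205) were close to absent. In DKO input Cdkn1a was still the most abundant, at 129 ± 26.7 CPM per kb, followed by Ccng1 at 43.6 ± 8.56 and Mdm2 at 16.2 ± 0.147. Phlda3 had moved to 9.16 ± 1.77 CPM per kb, beside Sesn2 at 9.10 ± 0.127.

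**Figure D1:**
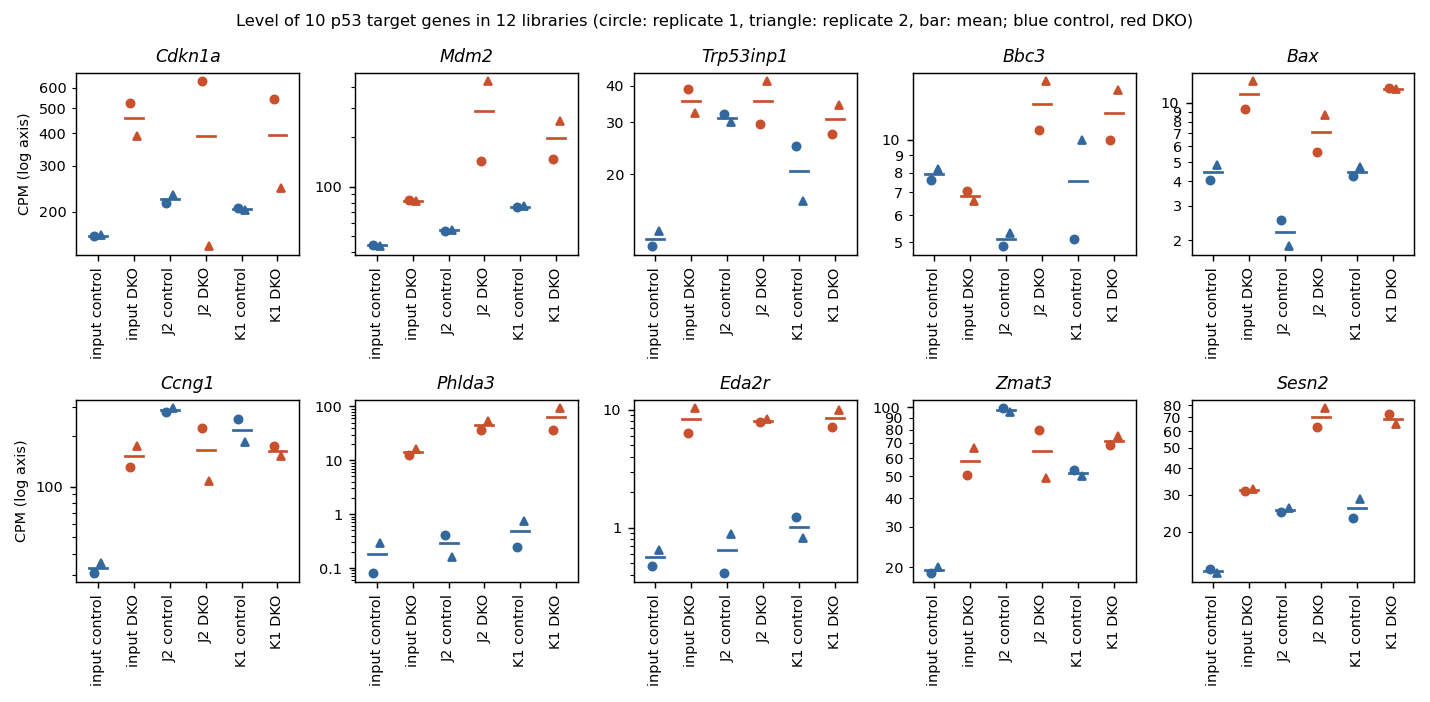
Level of each of the 10 genes in every library, in CPM on a log axis, with 1 panel per gene, 1 point per library and a bar at the mean of each of the 6 groups. In input, 9 panels have both DKO points above both control points, as have 34.0% of all genes tested, and Bbc3 is the exception.

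The first comparison asked how the RNA level of each target differed between DKO and control epithelium before any pulldown. In input, 9 of the 10 genes were higher in DKO, by 0.94 (Mdm2) to 6.21 (Phlda3) on the log2 scale, and Bbc3 was not called. Of all 15088 genes tested in input, 35.9% were called in either direction and 18.8% were called higher. With Phlda3 and Eda2r included, the members' median log2 fold change was 1.56, and that of all genes tested was 0.00. In each of the 9 genes both DKO animals were above both control animals, as they were in 34.0% of all genes tested. Without Phlda3 and Eda2r, 7 of 8 were called higher.

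Cdkn1a, Ccng1 and Mdm2, which act on the cell cycle or on p53 itself, each rose. Cdkn1a, the cyclin-dependent kinase inhibitor p21, was at 161.6 and 162.7 CPM in control input against 524.3 and 390.0 CPM in DKO input. The control animals were nearly equal and both DKO animals lay far above them, animal 1 higher than animal 2. The log2 fold change of Cdkn1a was 1.53 (SE 0.17, adjusted p = 6.25e-04). Ccng1, which encodes cyclin G1, a partner of protein phosphatase subunits that act on Mdm2, was at 30.52 and 35.41 CPM in control input against 131.8 and 174.4 CPM in DKO input. The groups did not overlap, and this gene had the largest fold change after Phlda3 and Eda2r, 2.25 (SE 0.17, adjusted p = 1.86e-04). Mdm2 itself was at 44.66 and 43.48 CPM in the control animals against 82.69 and 81.63 in the DKO animals. Both pairs of animals were tight, and the fold change was the smallest of the 9 (log2 0.94, SE 0.11, adjusted p = 9.42e-04).

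Bax and Trp53inp1, linked to cell death, rose, and Bbc3 was not called. Bax, the pore-forming member of the BCL2 family, was at 4.053 and 4.823 CPM in control input against 9.327 and 12.85 CPM in DKO input, without overlap (log2 fold change 1.36, SE 0.24, adjusted p = 0.00475). Bbc3 was at 7.629 and 8.206 CPM in the control animals against 7.078 and 6.607 in the DKO animals. Both DKO animals were thus slightly below both control animals, and the difference was not called (log2 -0.17, 95% interval -0.63 to 0.29, adjusted p = 0.530). The upper end of that interval lies below the estimates of the other 9. Trp53inp1, a p53 cofactor that also takes part in autophagy, was at 11.36 and 12.81 CPM in the control animals against 38.81 and 32.30 in the DKO animals (log2 1.59, SE 0.15, adjusted p = 3.96e-04). The DKO animals were again both above both controls.

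Phlda3 and Eda2r went from a trace to a clear signal. Phlda3, whose small PH-domain protein competes with Akt for membrane lipids, had 1 and 4 counts in control input against 148 and 221 in DKO input. Over the groups that is 5 against 369 counts, a ratio of 76.2 after scaling (95% interval 32.4 to 236, exact binomial, counting error only). The log2 fold change of Phlda3 was 6.21 (SE 0.42, adjusted p = 1.21e-04). Eda2r, the receptor for the ectodysplasin isoform A2, had 6 and 9 counts in the control animals against 77 and 140 in the DKO animals, a ratio of 14.9 (8.86 to 27.2). Its log2 fold change was 3.91 (SE 0.39, adjusted p = 4.35e-04). These were the 2 members with the lowest control levels and the largest fold changes.

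The remaining 2 targets act on RNA and on metabolism. Zmat3, an RNA-binding zinc finger protein, was at 18.76 and 19.94 CPM in control input against 50.38 and 66.36 CPM in DKO input (log2 1.63, SE 0.16, adjusted p = 4.22e-04). Sesn2, sestrin 2, a leucine sensor that restrains mTORC1, was at 13.35 and 12.67 CPM in the control animals against 31.31 and 31.93 in the DKO animals (log2 1.32, SE 0.13, adjusted p = 4.56e-04). Neither gene's groups overlapped. All 9 calls remained when any 1 of the 4 libraries was left out. In a single fit of all 12 libraries, whose spread includes the pulldowns, Cdkn1a and Mdm2 lost the call (adjusted p = 0.139 and 0.249) at log2 fold changes of 1.5 and 0.90, and 7 members were called. In bulk RNA a change in the number of cells of a type and a change in RNA per cell cannot be told apart.

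Trp53, which encodes p53, had 626 and 698 counts in control input against 626 and 692 in DKO input (log2 0.08, SE 0.11, adjusted p = 0.602), and was not called. To place the members, 5 other lists around p53 were read in the same input fit. These lists share some genes, namely Sesn1, Mdm4, Pmaip1, Apaf1, Bak1 and Bok. Of 29 tested among 30 other p53 targets, 16 were called higher and 2 lower, against 18.8% and 17.1% of all genes tested. Their median log2 fold change was 0.45. The genes with the largest changes among them were Gdf15, a stress cytokine (3.12, SE 0.32, adjusted p = 5.07e-04), and Psrc1, a spindle protein (3.04, SE 0.25, adjusted p = 2.43e-04). Next were the polo-like kinases Plk2 (2.95, SE 0.19, adjusted p = 1.07e-04) and Plk3 (2.51, SE 0.26, adjusted p = 5.02e-04). The 2 that fell were Sesn1 and Ddb2.

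Of 15 tested among 18 regulators and relatives of p53, Trp53 itself among them, 2 were called higher and 4 lower, 6 in all. Over all genes tested in input 35.9% were called and 17.1% were called lower, so the count of regulators lay near that background. Hipk2, a kinase that phosphorylates p53, fell by 1.77 on the log2 scale (SE 0.13, adjusted p = 1.82e-04). The DNA damage kinase Atm fell by 1.25 (SE 0.22, adjusted p = 0.00449) and the checkpoint kinase Chek2 by 0.98 (SE 0.29, adjusted p = 0.0351). Mdm4, the Mdm2 relative that binds p53, rose by 0.72 (SE 0.13, adjusted p = 0.00506). Without control animal 1, 3 regulators were called in place of 6.

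Relatives of the members did not all follow them. Of 14 tested among 15, 5 were called higher and 2 lower, against 18.8% and 17.1% of all genes tested. Lower calls were thus no more frequent than over all genes. Phlda1 rose by 2.82 (SE 0.15, adjusted p = 6.16e-05), whereas Sesn1, the sestrin related to Sesn2, fell by 1.86 (SE 0.19, adjusted p = 4.92e-04). Of the CDK inhibitors related to Cdkn1a, Cdkn1c rose by 1.19 (SE 0.24, adjusted p = 0.00790) and Cdkn1b fell by 0.97 (SE 0.12, adjusted p = 0.00111). Of 20 tested among 22 BCL2 family genes and caspases, 7 were called higher and 2 lower, against the same shares. Here too lower calls were no more frequent than over all genes. The BH3-only genes split: Pmaip1 (Noxa) rose by 2.34 (SE 0.32, adjusted p = 0.00157) and Bcl2l11 (Bim) by 1.39 (SE 0.23, adjusted p = 0.00328), while Bmf fell by 1.63 (SE 0.30, adjusted p = 0.00512). The initiator caspase gene Casp8 rose by 1.4 (SE 0.17, adjusted p = 8.79e-04).

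Cell cycle genes that are repressed downstream of p53 and p21 were lower. Of 18 tested, 16 were called lower, with a median log2 fold change of -1.47, against 17.1% of all genes tested. Aurkb fell by 1.99 (SE 0.28, adjusted p = 0.00182), Ccna2 by 1.97 (SE 0.25, adjusted p = 0.00110), Cdk1 by 1.84 (SE 0.30, adjusted p = 0.00333) and Birc5 by 1.79 (SE 0.26, adjusted p = 0.00198), all of them genes of S phase or mitosis. Markers of stem and dividing cells moved with them, as given above (median log2 fold change -2.03), and their part in this count was not tested.

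**Figure D2:**
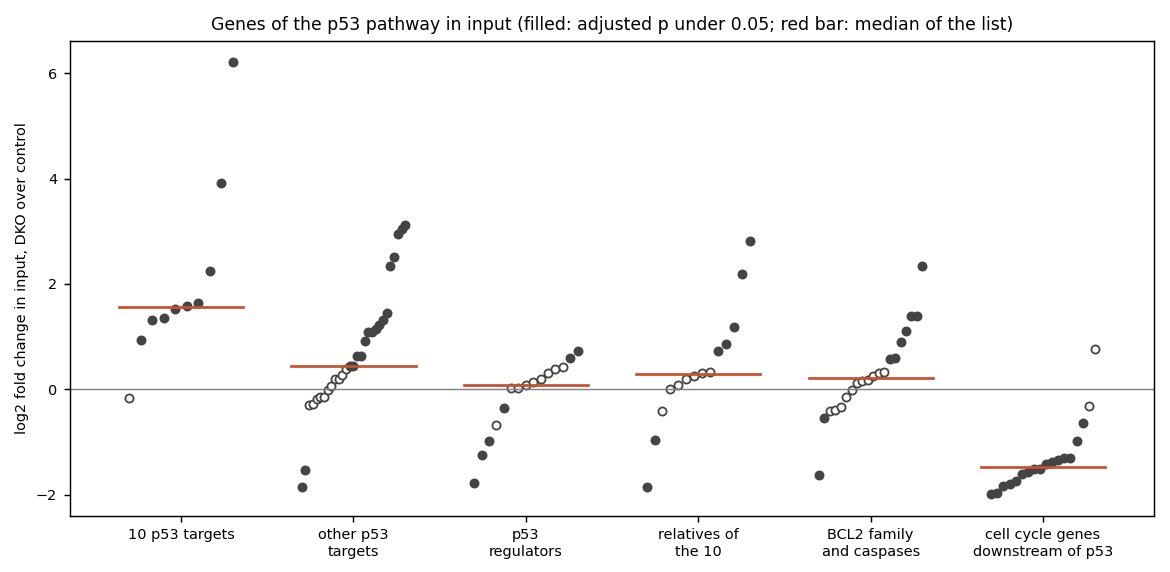
Log2 fold change of DKO against control in input for every tested gene of the 10 targets and of 5 other lists around p53, with 1 dot per gene and a bar at the median of each list. The 10 targets, Phlda3 and Eda2r among them, sit around 1.56, other targets around 0.45 and the cell cycle genes around -1.47.

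The same contrast was then made within the pulldowns, where a level reflects both how much of an RNA there is and how much of it the antibody holds. In J2, 3 of the 10 members were called higher in DKO (Phlda3, Eda2r and Sesn2), against 12.2% of all 13181 genes tested called in either direction, 6.04% higher and 6.17% lower. With Phlda3 and Eda2r included, the members' median log2 fold change was 1.46, that of all genes 0.03. In K1, 5 of 10 were called higher (Phlda3, Eda2r, Sesn2, Mdm2 and Bax), against 27.1% of 12888 genes in either direction, 13.1% higher and 13.9% lower. The members' median, again with Phlda3 and Eda2r, was 1.35, that of all genes -0.02. These 3 contrasts share animals but no libraries.

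Phlda3 had 6 and 2 counts in control J2 against 144 and 174 in DKO J2, and 4 and 10 in control K1 against 153 and 203 in DKO K1. The summed counts gave a ratio of 149 (95% interval 74.9 to 349) in J2 and of 117 (69.1 to 217) in K1. The log2 fold changes of Phlda3 were 7.27 (SE 0.63, adjusted p = 0.0287) and 7.24 (SE 0.73, adjusted p = 0.00197). Its order of groups was plain: the 3 control groups, at means of 0.184 to 0.495 CPM, overlapped with their neighbours. DKO input (14.3 CPM) lay above them and the DKO pulldowns (45.1 and 64.0 CPM), which overlapped each other, lay highest.

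Eda2r had 6 and 11 counts in control J2 against 31 and 27 in DKO J2, and 20 and 11 in control K1 against 30 and 22 in DKO K1, where the DKO libraries were far shallower. After scaling, the ratio was 12.8 (7.37 to 23.5) in J2 and 7.74 (4.87 to 12.5) in K1. The log2 fold changes were 3.69 (SE 0.59, adjusted p = 0.0308) and 3.20 (SE 0.53, adjusted p = 0.00712). Means of Eda2r were 0.562 to 1.03 CPM in the 3 control groups and 8.11 to 8.53 CPM in the 3 DKO groups, and the DKO groups overlapped one another.

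Sesn2 was at 24.88 and 26.03 CPM in control J2 against 62.63 and 77.07 CPM in DKO J2 (log2 1.53, SE 0.33, adjusted p = 0.0448). In K1 it was at 23.34 and 28.50 CPM in the control animals against 72.59 and 65.11 in the DKO animals (log2 1.60, SE 0.25, adjusted p = 0.00630). In every kind of library both DKO values were above both control values. Mdm2 was at 54.00 and 54.80 CPM in control J2 against 142.1 and 431.3 CPM in DKO J2, a wide gap between the DKO animals (log2 2.50, SE 0.67, adjusted p = 0.0652, not called). In K1 Mdm2 was at 75.01 and 75.99 CPM in the control animals against 146.1 and 247.3 in the DKO animals (log2 1.60, SE 0.36, adjusted p = 0.0185). DKO animal 2 was the higher of the pair under both antibodies, while the 2 animals were nearly equal in input.

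Bax was at 2.535 and 1.859 CPM in control J2 against 5.601 and 8.631 CPM in DKO J2 (log2 1.76, SE 0.53, adjusted p = 0.0823), and at 4.249 and 4.689 against 11.86 and 11.76 CPM in K1 (log2 1.59, SE 0.37, adjusted p = 0.0209). Bbc3, the member without a call in input, was at 4.865 and 5.335 CPM in control J2 against 10.69 and 14.80 CPM in DKO J2. The groups did not overlap there, but the difference was not called (log2 1.39, SE 0.45, adjusted p = 0.0913). In K1 it was at 5.112 and 9.973 CPM in the control animals against 9.964 and 14.02 in the DKO animals, which overlap (log2 0.86, SE 0.46, adjusted p = 0.205).

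Cdkn1a differed between the DKO animals in the pulldowns. It was at 216.2 and 232.5 CPM in control J2 against 632.9 and 147.3 CPM in DKO J2, so that 1 DKO library was above and 1 below both controls (log2 0.81, SE 0.70, adjusted p = 0.444). In K1 it was at 206.3 and 202.5 CPM in the control animals against 542.5 and 246.4 in the DKO animals (log2 1.11, SE 0.38, adjusted p = 0.0651). Trp53inp1 was at 32.14 and 30.07 CPM in control J2 against 29.53 and 41.31 CPM in DKO J2 (log2 0.26, SE 0.36, adjusted p = 0.629), and at 24.94 and 16.22 against 27.28 and 34.37 CPM in K1 (log2 0.77, SE 0.35, adjusted p = 0.139).

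Ccng1 and Zmat3 were the members whose J2 levels were lower in both DKO animals. Ccng1 was at 278.5 and 292.3 CPM in control J2 against 222.3 and 108.8 CPM in DKO J2 (log2 -0.75, SE 0.47, adjusted p = 0.297). In K1 it was at 252.3 and 184.9 CPM in the control animals against 175.3 and 151.5 in the DKO animals (log2 -0.23, SE 0.29, adjusted p = 0.593). Zmat3 was at 99.02 and 95.62 CPM in control J2 against 79.95 and 49.32 CPM in DKO J2 (log2 -0.55, SE 0.34, adjusted p = 0.303), and at 53.33 and 49.86 against 68.32 and 74.61 CPM in K1 (log2 0.67, SE 0.25, adjusted p = 0.0908). None of these 4 differences was called, whereas both genes rose in input.

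Without Phlda3 and Eda2r, 1 of 8 members was called in J2 and 3 of 8 in K1. The calls in the pulldowns rested on few libraries, and leaving out an animal moved the count over all genes as well. In J2 that count was 1609 of 13181 genes with all 4 animals, 8635 of 14647 without DKO animal 1, 7726 of 14312 without DKO animal 2, and 177 and 225 without control animals 1 and 2. In K1 it was 3489 of 12888, then 5343 of 14055 and 5819 of 14007 without DKO animals 1 and 2, and 1150 and 1298 without control animals 1 and 2. The members' counts below are to be read against these. Without DKO animal 1 all 10 members were called in J2, among them Cdkn1a at -0.53 (adjusted p = 0.0148), Ccng1 at -1.31 and Zmat3 at -0.90 as lower; without DKO animal 2, 7 were called, Cdkn1a at 1.56 (adjusted p = 6.17e-06). Without control animal 1, and likewise without control animal 2, only Phlda3 was called in J2. In K1, 7 members were called without DKO animal 1 and 7 without DKO animal 2, 2 (Phlda3 and Eda2r) without control animal 1 and 1 (Phlda3) without control animal 2. Summed CPM of stromal and endothelial markers was 140 and 28.4 in DKO J2 and 166 and 61.5 in DKO K1, against 2.71 to 32.0 in the control pulldowns. Col1a1 and Col3a1 carried most of it, at means of 57.0 and 17.5 CPM in DKO J2 against 5.78 and 2.19 in control J2. Dcn was at 1.05 against 1.30 CPM there. Of 4 markers tested among 7, 0 were called in J2 and 1 was called higher in K1. The part of these markers was not tested.

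**Figure D3:**
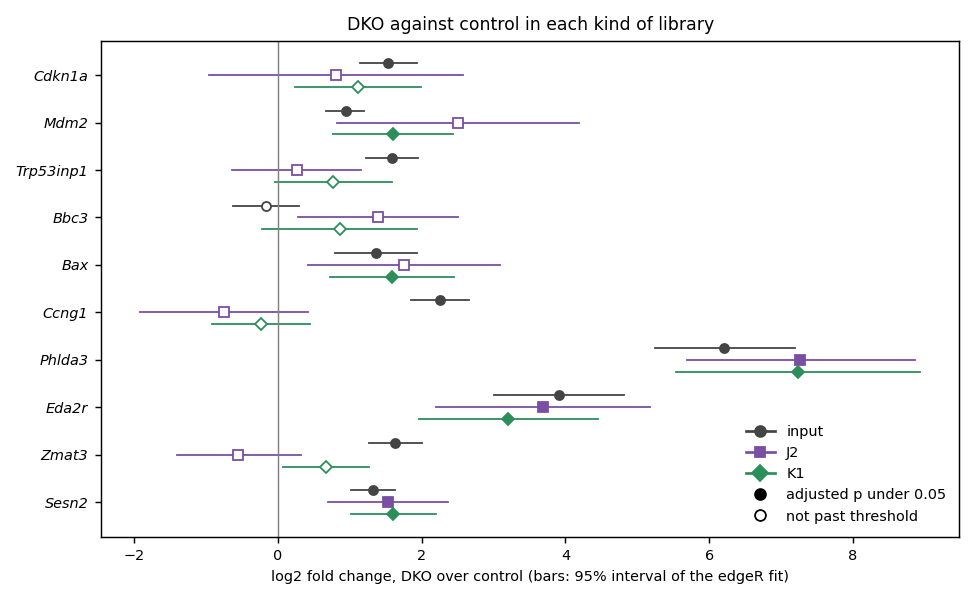
Log2 fold change of DKO against control for each of the 10 genes in input, J2 and K1, with bars for the 95% interval and filled points for adjusted p under 0.05. Of the input points 9 are filled and above 0, and in J2 Ccng1 and Zmat3 lie at -0.75 and -0.55, unfilled, with Ccng1 at 2.25 and Zmat3 at 1.63 in input.

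Pulldown was next compared with input, to ask which target RNAs the antibodies enriched in each genotype. In control, J2 enriched 4 members, Ccng1, Zmat3, Trp53inp1 and Sesn2 (calls were 29.8% of 15923 genes, 15.2% higher and 14.6% lower), and K1 enriched 3, Ccng1, Zmat3 and Sesn2 (39.8% of 15908 called, 19.7% higher and 20.1% lower). In DKO, J2 enriched Mdm2, Phlda3 and Sesn2 (25.7% of genes called, 12.2% higher and 13.4% lower), and K1 the same 3 genes (35.6% called, 14.6% higher and 21.0% lower). In the main edgeR fits no member was called lower in a pulldown than in its input in these 4 comparisons. At an unadjusted p under 0.05, 1 was lower, Bax for J2 in control (log2 -1.0, SE 0.36, adjusted p = 0.0698), and DESeq2 called it (log2 -1.05, adjusted p = 0.0425). Sesn2 was the member called in all 4.

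Ccng1 was the most enriched member in control. The log2 pulldown minus input difference within an animal was 3.18 and 3.04 for J2 in control animals 1 and 2, and 0.75 and -0.68 in DKO animals 1 and 2. For K1 these values were 3.04 and 2.38 in the control animals against 0.41 and -0.20 in the DKO animals. Control animals thus lay clear of DKO animals under both antibodies. The share of all genes with enrichment separated in this way was not counted, here or for the members below. The fitted log2 enrichment of Ccng1 was 3.12 (SE 0.41, adjusted p = 0.00274) for J2 in control and 0.14 (SE 0.37, adjusted p = 0.806) in DKO. For K1 it was 2.65 (SE 0.27, adjusted p = 1.91e-04) in control and 0.01 (SE 0.26, adjusted p = 0.980) in DKO.

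Zmat3 likewise had higher enrichment values in the control animals than in the DKO animals. Its within-animal J2 differences were 2.39 and 2.25 in the control animals against 0.66 and -0.43 in the DKO animals, and its K1 differences were 1.5 and 1.31 in the control animals against 0.44 and 0.17 in the DKO animals, with no overlap under either antibody. The fitted enrichment was 2.33 (SE 0.30, adjusted p = 0.00258) for J2 in control and 0.18 (SE 0.29) in DKO, and 1.34 (SE 0.21, adjusted p = 0.00102) for K1 in control and 0.21 (SE 0.21) in DKO. Trp53inp1 was enriched in control J2 (1.37, SE 0.25, adjusted p = 0.00664) and stood at 0.02 (SE 0.25) in DKO J2.

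Sesn2 was called enriched by both antibodies in both genotypes in the main fits. Its within-animal differences were 0.89 and 1.03 in the control animals against 1.00 and 1.27 in the DKO animals for J2, and 0.80 and 1.16 in the control animals against 1.21 and 1.02 in the DKO animals for K1. All 8 values were within 0.80 to 1.27. Fitted enrichment was 0.97 (SE 0.21, adjusted p = 0.0129) and 1.17 (SE 0.21, adjusted p = 0.00900) for J2 in control and DKO, and 0.91 (SE 0.19, adjusted p = 0.00383) and 1.04 (SE 0.19, adjusted p = 0.00272) for K1. Without TMM the J2 calls of Sesn2 were lost in control (0.60, adjusted p = 0.251) and in DKO (0.90, adjusted p = 0.110). After thinning its J2 call in control was lost too (0.73, adjusted p = 0.107).

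Mdm2 and Phlda3 were called enriched in DKO. For Mdm2 the J2 differences were 0.27 and 0.33 in the control animals against 0.78 and 2.40 in the DKO animals, with a fitted 0.31 (SE 0.46) in control and 1.83 (SE 0.47, adjusted p = 0.0257) in DKO. For K1 they were 0.75 and 0.80 in the control animals against 0.82 and 1.60 in the DKO animals, with a fitted 0.70 (SE 0.26, adjusted p = 0.0541) and 1.18 (SE 0.26, adjusted p = 0.00729). DKO animal 2 gave the highest value of the 4 in both cases. Phlda3 was enriched in DKO by 1.69 (SE 0.37, adjusted p = 0.0150) in J2 and 2.06 (SE 0.43, adjusted p = 0.00551) in K1. Its counts in the control libraries, 1 to 10 in each, were too low to place its enrichment there. Without control animal 1 or control animal 2, 0 members were called in J2 of either genotype, in K1 of control Ccng1 alone kept its call and only without animal 2, and in K1 of DKO Mdm2 lost its call (adjusted p = 0.0548 and 0.0508). Of all genes, the same 2 fits called 0 of 17009 and 0 of 16858 for J2 in control, 346 and 438 for J2 in DKO, 338 and 281 for K1 in control and 3005 and 3052 for K1 in DKO. Without DKO animal 1 and DKO animal 2, J2 enrichment in control was -1.12 and -0.99 for Bax and -0.76 and -0.62 for Bbc3. Ccng1, Zmat3, Trp53inp1 and Sesn2 stayed above 0 there. In DKO the same fits gave -0.79 and 0.78 for Ccng1, -0.54 and 0.69 for Zmat3 and -1.52 and 0.30 for Cdkn1a. Over all genes these J2 fits called 10140 of 16924 and 9911 of 16376 in control and 7790 and 6898 in DKO. With the animal as a block, K1 in control had 5 calls in place of 3, adding Mdm2 (0.70, adjusted p = 0.0201) and Trp53inp1 (0.66, adjusted p = 0.0320).

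The difference of enrichment between the genotypes, the interaction of pulldown and genotype, tests the change directly. For J2, 2 of 10 members were called, both lower in DKO: Ccng1 by -2.98 (SE 0.54, adjusted p = 0.0408) and Zmat3 by -2.16 (SE 0.41, adjusted p = 0.0434), against 2.71% of 15923 genes called in either direction and 1.94% lower. For K1, 1 of 10 was called, Ccng1 by -2.64 (SE 0.37, adjusted p = 0.00949), against 5.47% of 15908 genes in either direction and 4.10% lower. Zmat3 stood at -1.13 (SE 0.29, adjusted p = 0.0507) there. The level of Ccng1 was thus higher in DKO by 2.25 on the log2 scale in input, and stood at -0.75 in J2 and -0.23 in K1 without a call.

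The remaining differences of enrichment went both ways. Trp53inp1 stood at -1.35 (SE 0.35, adjusted p = 0.0736) for J2 and -0.99 (SE 0.37) for K1. Bbc3 was on the other side, at 1.55 (SE 0.41, adjusted p = 0.0764) and 0.86 (SE 0.48), with within-animal J2 differences of -0.63 and -0.60 in the control animals against 0.58 and 1.14 in the DKO animals that do not overlap. Mdm2 stood at 1.52 (SE 0.65, adjusted p = 0.185) and 0.48 (SE 0.37), and Cdkn1a at -0.68 (SE 0.83) and -0.55 (SE 0.48). Sesn2 was at 0.20 (95% interval -0.49 to 0.89) for J2 and 0.13 (-0.45 to 0.72) for K1. The members' medians were 0.00 for J2 and -0.24 for K1.

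With the animal as a block no gene of the whole table was called for J2, so Ccng1 (-3.05, adjusted p = 0.0738) and Zmat3 (-2.18, adjusted p = 0.0774) lost their calls there, while for K1 Ccng1 stayed and Zmat3 was added (-1.11, adjusted p = 0.0177). Without control animal 1 or control animal 2, Ccng1 was at -2.94 and -3.24 for J2 and at -2.31 and -3.00 for K1, and none of these was called (adjusted p 0.193 to 0.739). Zmat3, at -2.13 and -2.41 for J2, was not called either. Without DKO animal 1, 6 members were called for J2 and 4 for K1, and without DKO animal 2, 5 and 2. Over all genes these fits called 6990 of 16924 and 4517 of 16376 for J2, and 3803 of 16778 and 1656 of 16400 for K1, in place of 432 and 870.

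**Figure D4:**
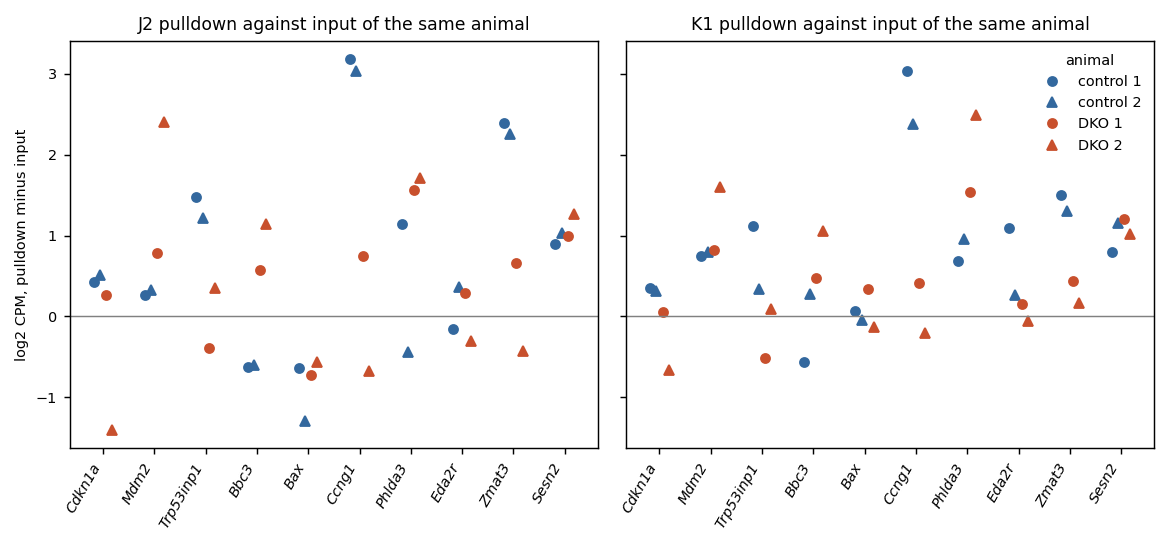
Log2 CPM in the pulldown minus log2 CPM in the input of the same animal, for each of the 10 genes, with J2 and K1 in separate panels and 1 point per animal. Control animals lie at 2.38 to 3.18 for Ccng1 and DKO animals at -0.68 to 0.75, while all animals lie between 0.80 and 1.27 for Sesn2.

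Antibodies to double-stranded RNA can hold an RNA that pairs with itself, so the longest transcript of each member was aligned to its own reverse complement. The longest inverted repeat found was 19 bp in Mdm2, 17 bp in Bbc3 and 13 bp in Trp53inp1, and none was found in the other 7, Ccng1 and Zmat3 among them, with a seed of 11 bases. Of 9414 genes searched in the same way, 40.7% held a repeat of any length found, and 14.4% held one longer than that of Mdm2. A repeat of at least 100 bp was held by 1.63%. The members thus did not stand out from other genes in this search. Introns and pairing between separate RNAs were not searched.

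Across the 12 libraries the members did not all vary alike. Log2 CPM of Phlda3 and Eda2r correlated at r = 0.96, that of Mdm2 and Sesn2 at 0.91, and that of Ccng1 and Zmat3 at 0.94, whereas Bbc3 and Ccng1 stood at -0.25. These are descriptions over libraries that share 4 animals and 3 library kinds. The correlation with the mean of the other 9 members was highest for Sesn2 (0.94), Phlda3 (0.92) and Eda2r (0.89) and lowest for Ccng1 (0.39) and Bbc3 (0.45). The mean z score of the 10 members was -1.26 and -1.12 in control input, -0.40 to -0.32 in the control pulldowns, 0.34 and 0.41 in DKO input and 0.73 to 0.87 in the DKO pulldowns. Both genotype and pulldown thus separated the libraries on it. Of 9269 other genes, the 5 whose log2 CPM was most like that mean were Tcf23 (r = 0.962), Gtf2f1 (0.961), Trim35 (0.958), Wtip (0.955) and Irf7 (0.955). All 5 were higher in DKO input, at log2 fold changes of 1.25 (Gtf2f1, SE 0.13) to 3.31 (Wtip, SE 0.33), which their choice by this pattern favours.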

How the data were processed

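The authors deposited a file for each library with whole-number counts of reads for every gene, counted without strand per the labels. The submitters' processing notes list mm10, GRCm38.p4, FastQC, STAR 2.7.10b, SAMtools 1.17, UMI-tools 1.1.4, HTSeq 2.0.2, DESeq2 1.40.1, edgeR 3.42.2 and deepTools 3.5.2 without roles. Rows that name no gene (18.7% to 61.2% of listed reads) entered neither library sizes nor tests. Symbols and positions came from GENCODE M21 (GRCm38), which matched 48144 of 48526 identifiers without version. Positions of promoters came from RefSeq (GRCm38.p6).

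The quasi-likelihood test of edgeR 4.0.16 (R 4.3.3) was run on the counts with TMM scaling, filterByExpr with a count minimum of 10, and Benjamini-Hochberg adjusted p under 0.05 over all genes tested. DKO and control were compared within each library kind in fits of 4 libraries (2 residual degrees of freedom). Pulldown against input, and its interaction with genotype, used fits of 8 libraries (4 residual degrees of freedom). These main fits had no term for the animal, so the pairing of pulldown with input entered only the alternative with a block. Log2 CPM used a prior count of 2. Code was tested on simulated data. The depth of each library is given with the data, and counting intervals cover counting error only. Scaling removes differences in total RNA pulled down.

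The members and all lists were chosen with earlier results of these data known. Named were all members, Kat2a, Kat2b, Trp53 and Mdm4, and of each other list up to 4 genes with the largest absolute input fold change among those called, averaging 50 or more counts in the input libraries, and with no overlap between genotypes. The 5 genes most like the members needed a mean count of 50 or more. Alternatives were other scaling, no filter, DESeq2 1.42.0, a fit of all 12 libraries, thinning to the smallest library, a block and leaving out each animal. Same-numbered libraries of a genotype come from 1 animal by the labels. Their deviations from group means correlated at 0.21 to 0.49 over 16582 genes, so the animal pairs pulldown with input. Between genotypes, where numbers name different animals, the correlations were -0.10 to 0.03. Inverted repeats were sought with blastn 2.17.0+ under a limit on its E-value, which drops short matches more readily in long transcripts.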

Additional observations from a re-analysis of the deposited data

Results flagged for a closer look

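The pulldown enrichment of 2 members differed between the genotypes by the test of the interaction itself. For Ccng1, the log2 difference of J2 enrichment, DKO minus control, was -2.98, and the K1 difference was -2.64. For Zmat3 the J2 difference was -2.16. With the animal as a block both J2 calls were lost (adjusted p = 0.0738 for Ccng1 and 0.0774 for Zmat3), and all 3 calls were lost without control animal 1 and without control animal 2. Both genes rose in input, and their levels in the pulldowns were not called different. The differences within each animal are given with the enrichment values above, where all control animals lie above all DKO animals for both genes. The share of all genes with such a separation was not counted.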

How the results depend on the processing

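With 2 animals a group, each estimate of spread rests on few libraries. Thinned to the depth of the shallowest library, J2 had 3 member calls between genotypes and K1 had 8. The 9 calls in input had the same direction under every alternative and were 7 in the fit of all 12 libraries and 9 under the others. Among the values of single members, leave-one-out fits aside, 510 had the same direction and side of the threshold, 23 gained a call, 12 lost one and 25 changed sign. The cause of these changes was not tested. Without TMM scaling the share of higher calls among all called genes went from 52.4% to 42.1% in input, from 49.5% to 32.6% in J2 and from 48.6% to 27.4% in K1, with a median of all genes of -0.13 in input and -0.40 in K1.

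Members called differed by more than 1.5 times in these settings. DKO against control in J2 (3 called) had 5 without the filter and 6 in the fit of all 12 libraries, and in K1 (5 called) 8 after thinning. J2 against input had 2 in control (4) and 0 in DKO (3) without TMM. K1 against input in control (3) had 5 without the filter. The J2 difference of enrichment (2) had 4 by DESeq2. The K1 difference (1) had 2 without the filter and 2 by DESeq2. In input, the fit of all 12 libraries called 9 of the other p53 targets (18), 1 regulator (6), 2 relatives (7), 4 BCL2 family genes and caspases (9) and 9 cell cycle genes (16), and DESeq2 called 3 regulators. Over all genes, calls in input went from 5421 to 1675 in the fit of all 12 libraries. In J2 they went from 1609 to 5993 there, 2884 by DESeq2 and 4273 without the filter. After thinning, pulldown against input fell from 4746 to 2672 (J2, control), 4088 to 2311 (J2, DKO), 6324 to 2940 (K1, control) and 5659 to 3468 (K1, DKO). The J2 difference went from 432 to 2018 by DESeq2, 2453 without the filter, 672 without TMM and 163 after thinning, and the K1 difference from 870 to 523 with DESeq2 size factors, 1763, 1309 and 247 (the last 3 as for J2).

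With the replicate block, which is the animal for pulldown against input, K1 against input in control had 5 calls, the J2 difference 0 and the K1 difference 2, and J2 enrichment of Eda2r in DKO was 0.02. Over the whole table the J2 difference had 432 calls and 0 with the block, and the K1 difference 870 and 1912. Between genotypes the numbers pair no animals: with that block the input had 9 member calls, J2 4 and K1 5.

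Outside the leave-one-out fits, each change of sign was in a value called under neither setting. J2 enrichment in control went to -0.07 without TMM and -0.07 after thinning for Mdm2, and to -0.18 and -0.14 for Eda2r. In DKO, J2 enrichment of Trp53inp1 was -0.06 with DESeq2 size factors, -0.23 without TMM, -0.22 without the filter, -0.06 by DESeq2 and -0.02 after thinning. That of Ccng1 was -0.33 without TMM and -0.10 without the filter, and that of Zmat3 -0.25 and -0.07. K1 enrichment without TMM in DKO was -0.33 for Bax, -0.31 for Ccng1 and -0.11 for Zmat3. After thinning it was -0.04 for Ccng1 and 0.29 for Eda2r in DKO, and -0.51 for Eda2r in control. Differences of enrichment after thinning were 0.05 (J2) and 0.80 (K1) for Eda2r and -0.84 (K1) for Phlda3. The K1 difference of Bax was -0.03 without TMM and the J2 difference of Sesn2 -0.10 without the filter.

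Leave-one-out fits, in which a group of 1 library is assumed to vary like the other groups, gave these ranges of members called: 9 to 9 for input, 1 to 10 for DKO against control in J2, 1 to 7 for DKO against control in K1, 0 to 8 for J2 against input in control, 0 to 7 for J2 against input in DKO, 0 to 5 for K1 against input in control, 2 to 4 for K1 against input in DKO, 0 to 6 for J2 difference of enrichment, 0 to 4 for K1 difference of enrichment. The members that changed sign in such a fit had these ranges. For DKO against control in J2 they were Cdkn1a -0.53 to 1.56, Trp53inp1 -0.02 to 0.49. For DKO against control in K1 they were Ccng1 -0.48 to 0.01. For J2 against input in control they were Phlda3 -0.77 to 2.23, Eda2r -0.18 to 0.46. For J2 against input in DKO they were Cdkn1a -1.52 to 0.30, Trp53inp1 -0.37 to 0.24, Ccng1 -0.79 to 0.78, Eda2r -0.42 to 0.33, Zmat3 -0.54 to 0.69. For K1 against input in control they were Bbc3 -0.63 to 0.19, Bax -0.13 to 0.01. For K1 against input in DKO they were Bax -0.28 to 0.26, Ccng1 -0.36 to 0.32, Eda2r -0.20 to 0.06. For J2 difference of enrichment they were Bax -0.13 to 0.71, Phlda3 -0.70 to 2.43, Eda2r -0.51 to 0.15. For K1 difference of enrichment they were Bax -0.19 to 0.33, Sesn2 -0.06 to 0.27.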

Other observations

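Hipk2, the p53 kinase gene that fell in input, was enriched by both antibodies in control. It was at 476 and 513 CPM in control input and 6026 and 7185 CPM in control J2, against 148 and 135 CPM in DKO input and 670 and 145 CPM in DKO J2. Its J2 enrichment in control was 3.74 on the log2 scale (adjusted p = 0.0106), and its K1 enrichment there was 2.49 (adjusted p = 3.93e-04). In K1 it was at 2822 and 3033 CPM in control and 333 and 226 CPM in DKO, lower in DKO by the test (log2 -3.21, SE 0.42, adjusted p = 0.00385). For J2 the same contrast was -4.01 (SE 1.18, adjusted p = 0.0777).

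Mdm4 was higher in DKO input. Its K1 level against input was not called in control (log2 -0.03, adjusted p = 0.946) and was lower in DKO (log2 -1.75, adjusted p = 0.00106), a difference of -1.73 (adjusted p = 0.0267). Gdf15 went the other way, with a K1 difference of 2.34 (adjusted p = 0.0374), and rose in DKO within J2 (5.52, SE 0.66, adjusted p = 0.0287) and K1 (5.61, SE 0.43, adjusted p = 0.00169). Between genotypes in the pulldowns, Gdf15 passed the filter on low counts only with its DKO libraries. Its control means were 0.902 CPM in J2 and 1.01 CPM in K1. A difference was thus built into its being tested there, and its calls are part of the counts of other p53 targets below. Under each antibody Psrc1, Plk2 and Plk3 were also higher in both DKO animals than in both control animals. The share of all genes with that order was not counted in the pulldowns. The log2 fold changes of Psrc1, Plk2 and Plk3, given here without their tests, were 5.23, 4.6 and 3.12 in J2 and 4.31, 4.23 and 2.33 in K1. DKO animal 2 lay far above the other DKO animal for Psrc1 under both antibodies and for Plk2 in J2. Of the 29 other p53 targets tested, 6 were called higher in J2, and 11 higher and 2 lower in K1, against 6.04% of all genes higher in J2, and 13.1% higher and 13.9% lower in K1. The cell cycle list had 2 of 18 called lower in J2 and 6 in K1, against 6.17% and 13.9% of all genes. Trp53 was at 17.3 to 18.8 CPM in control J2 and 38.4 and 83.9 CPM in DKO J2, a difference that was not called (log2 1.85, SE 0.50, adjusted p = 0.0657).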
